A study of Mus musculus with 8 samples.

Results

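De novo lipogenesis, the making of fatty acids from other fuels, was followed in gonadal white fat through 9 genes: the enzymes Acly, Acss2, Acaca, Acacb, Fasn and Me1 and the regulators Srebf1, Mlxipl and Thrsp. They were chosen by gene symbol, not by their values in these arrays, although earlier results of the same arrays were known when they were chosen. Every probe set carrying exactly one of these symbols was used, which gave 21 probe sets of 45037, and each gene was represented by its brightest probe set, which gave 9 genes of 18193. RNA from fat of mice aged 10 weeks, on a Swiss background, was hybridised to Affymetrix mouse arrays, 1 array per sample and 4 per group. Controls were wild type and are called control 1, 2, 3 and 4 after their labels. Knockouts were labelled aP2-Pex5 knockout and are called knockout 6, 8, 9 and 10. Pex5 is the receptor that carries most enzymes into peroxisomes, and the submitters described the knockouts as lacking functional peroxisomes in fat. The aP2 promoter is that of Fabp4, which is active in adipocytes but also in macrophages and some other cells, so the deletion need not be confined to adipocytes. The labels give no treatment, and nothing in them states that each array is a different animal. The p-values therefore describe the spread between these samples, which may be partly technical.

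In lipogenesis, citrate leaves the mitochondrion and Acly splits it into acetyl-CoA in the cytosol, while Acss2 makes acetyl-CoA from acetate. Acaca and Acacb add a carboxyl group to give malonyl-CoA, and Fasn joins malonyl units into palmitate with NADPH, part of which comes from Me1. Srebf1 encodes SREBP-1, a membrane-bound transcription factor that is cut free under insulin and sterol signals. Mlxipl encodes ChREBP, which responds to glucose metabolites, and Thrsp encodes a small protein that rises with lipogenesis and thyroid hormone.

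SREBP-1, ChREBP and their partners are known to act through short promoter elements, so the 250 bases before the RefSeq gene starts of the 9 genes were searched on both strands (GRCm38.p6, 13 windows, at least 1 for every gene). The elements were the CCAAT box (CCAAT or ATTGG), the E-box CACGTG, the GC box (GGGCGG or CCGCCC) and a sterol regulatory element core (TCACNCCAC or its reverse complement). The windows below are shown for the enzyme Fasn, the acetyl-CoA suppliers Acly and Acss2, and the regulators Mlxipl and Thrsp, because they hold the main arrangements found. Each runs from its most distant base to the base before the gene start, on the strand of the gene, and capitals mark every match.
Fasn, chr11:120824548-120824797, minus strand: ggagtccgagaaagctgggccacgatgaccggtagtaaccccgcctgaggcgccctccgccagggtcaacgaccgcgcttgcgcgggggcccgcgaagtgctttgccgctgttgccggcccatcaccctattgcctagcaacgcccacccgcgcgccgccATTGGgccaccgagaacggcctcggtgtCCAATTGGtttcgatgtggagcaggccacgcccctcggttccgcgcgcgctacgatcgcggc
Acly, chr11:100528001-100528250, minus strand: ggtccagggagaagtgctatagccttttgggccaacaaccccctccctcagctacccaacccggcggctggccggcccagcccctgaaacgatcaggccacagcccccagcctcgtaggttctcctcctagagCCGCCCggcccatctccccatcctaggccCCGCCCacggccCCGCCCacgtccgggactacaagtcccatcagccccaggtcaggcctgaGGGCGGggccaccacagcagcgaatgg
Acss2, chr2:155517793-155518042, plus strand: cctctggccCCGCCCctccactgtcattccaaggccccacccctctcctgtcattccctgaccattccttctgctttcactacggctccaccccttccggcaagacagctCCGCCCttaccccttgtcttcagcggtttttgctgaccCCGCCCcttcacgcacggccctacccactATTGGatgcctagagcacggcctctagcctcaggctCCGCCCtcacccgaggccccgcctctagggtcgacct
Mlxipl, chr5:135089640-135089889, plus strand: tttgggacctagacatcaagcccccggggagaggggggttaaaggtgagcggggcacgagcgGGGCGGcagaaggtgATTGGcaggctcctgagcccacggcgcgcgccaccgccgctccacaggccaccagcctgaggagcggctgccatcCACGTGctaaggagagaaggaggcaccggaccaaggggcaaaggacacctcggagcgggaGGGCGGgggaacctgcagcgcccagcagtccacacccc
Thrsp, chr7:97417551-97417800, minus strand: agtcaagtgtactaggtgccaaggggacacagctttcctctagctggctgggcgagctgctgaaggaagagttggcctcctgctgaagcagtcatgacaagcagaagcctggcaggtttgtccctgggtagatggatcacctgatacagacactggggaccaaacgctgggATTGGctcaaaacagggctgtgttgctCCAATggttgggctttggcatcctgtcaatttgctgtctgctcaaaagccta
The Fasn window held 3 CCAAT matches, of which the pair nearest the start overlap on opposite strands, and the Thrsp window held 2. Acly held 4 GC boxes and no CCAAT box, and Acss2 held 4 GC boxes with 1 CCAAT box. The Mlxipl window was the only one of the 13 with the E-box.

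Across all windows, the CCAAT box was in 8 of 13 windows and 7 of 9 genes, against 33.8% of all 32851 RefSeq promoter windows of the same length. The GC box was in 6 of 13 windows and 5 genes, against 32.7% of all windows. The E-box was in 1 of 13, against 6.02%, and the sterol element core in 1 of 13, the other Mlxipl window at chr5:135106641-135106890, against 1.05%. The Acaca window listed by RefSeq held none of the 4 elements in these letters. That window was 39.2% G and C and ends in letters that may be a splice acceptor, so it may not be a promoter. It is counted in the shares above, and whether an Acaca promoter holds these elements was not settled. RefSeq lists 2 windows for Me1 and Mlxipl and 3 for Srebf1, and the arrays do not tell which start a transcript used. These matches are letters in a sequence; binding was not measured.

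Median log2 levels of the arrays lay between 6.44 and 6.52. The groups overlapped for the targeted gene, Pex5. Its brighter probe set, 1426770_at, measured 9.52, 9.58, 9.34 and 9.06 in controls and 9.50, 9.27, 9.38 and 9.30 in knockouts, a difference of -0.01 (95% interval -0.29 to 0.27; limma unadjusted p = 0.914, adjusted p = 0.999). The other, 1422063_a_at, measured 9.005, 9.39, 9.16 and 8.55 against 9.30, 9.15, 8.75 and 9.06. Where these probe sets lie relative to the deleted part of the gene was not used here, and the tissue also holds cells in which the aP2 promoter is not active, so Pex5 does not check the labels. Control and knockout below therefore mean arrays labelled so, and every direction rests on those labels.

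All 9 genes had a lower mean in knockout fat, by 0.08 to 0.86 on the log2 scale, and none passed the test. The median difference was -0.42, which is a knockout level of 0.749 of control, against -0.0082 over all genes. A knockout mean below the control mean was found for 53.3% of all genes. The 9 genes moved together from array to array, as described below, so counts among them are not counts of independent genes. At an adjusted p under 0.05 in limma, with Benjamini-Hochberg adjustment over 18193 genes, 0 of the 9 were called, and 0 of all genes (0%). At an unadjusted p under 0.05, 0 of the 9 were counted, against 466 of all genes (2.56%), or 1.38% counting only those lower in knockout. In none of the 9 did all knockout arrays lie below all control arrays, an arrangement found for 1.02% of all genes, or 1.7% in either direction. In bulk tissue, fewer cells of a type and less RNA per cell cannot be told apart.

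**Figure D1:**
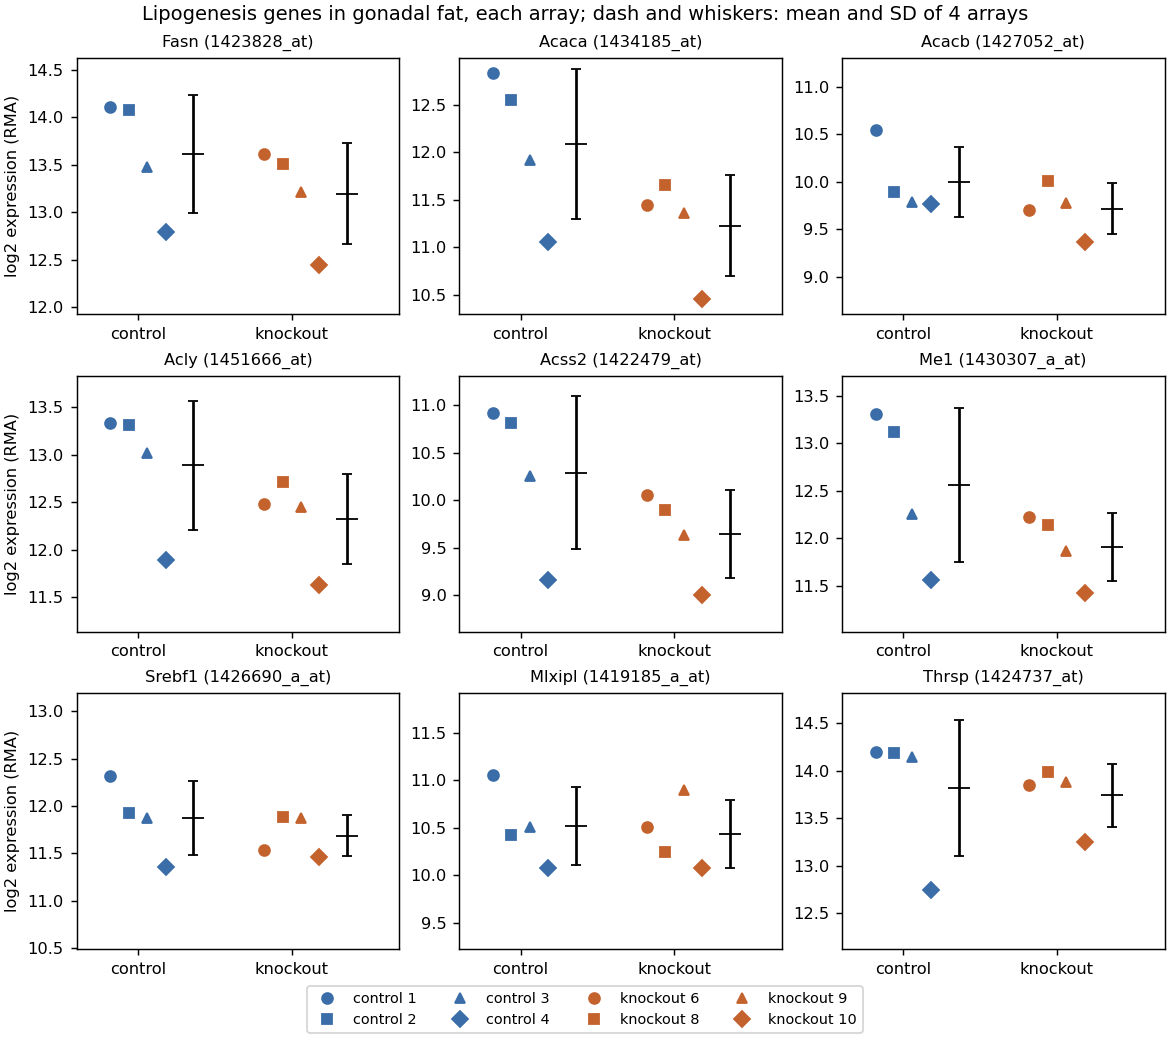
Log2 values (RMA) of the 9 genes on each array, with control and knockout arrays as separate points and a black dash with whiskers for the group mean and SD (n = 4 per group). The groups overlap for every gene, and in both groups each gene spreads widely: Acaca runs from 11.05 to 12.84 in controls and from 10.45 to 11.65 in knockouts.

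Among the suppliers of acetyl-CoA, Acly, the citrate-cleaving enzyme, measured 13.33, 13.31, 13.02 and 11.89 in controls 1, 2, 3 and 4 and 12.48, 12.72, 12.45 and 11.63 in knockouts 6, 8, 9 and 10 (log2 levels). Controls 1, 2 and 3 lay above every knockout, and control 4 lay below all knockouts except knockout 10. The means were 12.89 ± 0.68 and 12.32 ± 0.47 (SD, n = 4 each), a difference of -0.57 (95% interval -1.38 to 0.24; limma unadjusted p = 0.147, adjusted p = 0.999). Acss2, which activates acetate, had the same arrangement of arrays. Its log2 levels were 10.92, 10.82, 10.25 and 9.16 in controls 1, 2, 3 and 4, and 10.05, 9.89, 9.63 and 9.004 in knockouts 6, 8, 9 and 10. The means of 10.29 ± 0.81 and 9.64 ± 0.46 differed by -0.64 (-1.55 to 0.27; limma unadjusted p = 0.143, adjusted p = 0.999). Control 4 and knockout 10 were the low array of their group for both genes.

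Of the acetyl-CoA carboxylases, Acaca, the cytosolic form that feeds fatty acid synthesis, had the largest difference of the 9 genes. Its log2 levels were 12.84, 12.55, 11.93 and 11.05 in controls 1, 2, 3 and 4, and 11.45, 11.65, 11.36 and 10.45 in knockouts 6, 8, 9 and 10. Controls 1, 2 and 3 lay above all 4 knockouts, and control 4 lay within the knockout range. The means of 12.09 ± 0.79 and 11.23 ± 0.53 differed by -0.86 (95% interval -1.79 to 0.07; limma unadjusted p = 0.0657, adjusted p = 0.999), a knockout level of 0.550 of control. Acacb is the form at the mitochondrial surface, where its malonyl-CoA restrains entry of fatty acids for oxidation. It measured 10.54, 9.89, 9.79 and 9.77 in controls and 9.71, 10.01, 9.77 and 9.36 in knockouts, in the same order of arrays. Apart from control 1, which was high, and knockout 10, which was low, its arrays lay close together in both groups. The means of 10.00 ± 0.37 and 9.71 ± 0.27 differed by -0.28 (-0.74 to 0.17; limma unadjusted p = 0.193, adjusted p = 0.999). Set against Acacb on the same array, and relative to the control mean of that log2 ratio, Acaca stood at 0.20, 0.57, 0.04 and -0.81 in controls 1, 2, 3 and 4 and at -0.35, -0.45, -0.50 and -1.004 in knockouts 6, 8, 9 and 10. The ratio was thus below 0 in all knockouts and in control 4, which overlapped them.

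Fasn, which builds palmitate, measured 14.11, 14.08, 13.48 and 12.79 in controls and 13.62, 13.51, 13.22 and 12.45 in knockouts (log2, arrays in order of their number). Only controls 1 and 2 lay above all knockouts. The means were 13.61 ± 0.62 and 13.20 ± 0.53, a difference of -0.42 (95% interval -1.22 to 0.38; limma unadjusted p = 0.267, adjusted p = 0.999). Me1, the malic enzyme of the cytosol and a source of NADPH, measured 13.30, 13.12, 12.26 and 11.56 in controls and 12.22, 12.13, 11.86 and 11.42 in knockouts. Controls 1, 2 and 3 lay above all knockouts, control 3 by the smallest margin. Its means of 12.56 ± 0.81 and 11.91 ± 0.36 differed by -0.65 (-1.51 to 0.22; limma unadjusted p = 0.123, adjusted p = 0.999).

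The regulators had the smallest differences of the 9, although their gap to the enzymes was not tested. Srebf1 measured 12.32, 11.93, 11.88 and 11.36 in controls and 11.54, 11.88, 11.87 and 11.46 in knockouts, so that controls 2 and 3 and knockouts 8 and 9 lay close together. Its means of 11.87 ± 0.39 and 11.69 ± 0.22 differed by -0.18 (95% interval -0.64 to 0.27; limma unadjusted p = 0.379, adjusted p = 0.999). Probe sets for this gene read transcript level, not the cut, nuclear form of the protein. Mlxipl measured 11.06, 10.42, 10.51 and 10.08 in controls and 10.51, 10.25, 10.90 and 10.08 in knockouts, the only gene of the 9 whose highest knockout was knockout 9. Its difference was -0.08 (-0.62 to 0.46; limma unadjusted p = 0.737, adjusted p = 0.999) between means of 10.52 ± 0.41 and 10.44 ± 0.36. The probe set for ChREBP is not known here to separate its long and short transcript forms. Thrsp measured 14.19, 14.19, 14.14 and 12.74 in controls and 13.85, 13.98, 13.88 and 13.24 in knockouts. Controls 1, 2 and 3 lay above every knockout for this gene, and control 4 was the lowest array of all 8. How many of all genes share this arrangement was not counted. The difference was -0.08 (-0.85 to 0.70, limma unadjusted p = 0.825, adjusted p = 0.999). The means were 13.82 ± 0.72 and 13.74 ± 0.34.

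The intervals are wide, and the 9 genes varied more within each group than most genes on the arrays. Their median SD within groups was 0.577 on the log2 scale against 0.157 for all genes, and all 9 lay above the upper quartile of 0.235. Acaca ranged 5.23-fold over the 8 arrays, Acss2 3.77-fold, Me1 3.69-fold, Acly 3.26-fold, Fasn 3.16-fold, Thrsp 2.73-fold, Acacb 2.27-fold, Mlxipl 1.98-fold and Srebf1 1.94-fold. The spread had a shared shape: control 1 was the highest array for all 9 genes, control 4 the lowest control for all 9 and knockout 10 the lowest knockout for all 9. Averaged over the 9 genes after centring each, the arrays stood at 0.76, 0.51, 0.16 and -0.60 in controls 1, 2, 3 and 4 and at -0.04, 0.03, -0.09 and -0.74 in knockouts 6, 8, 9 and 10.

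**Figure D2:**
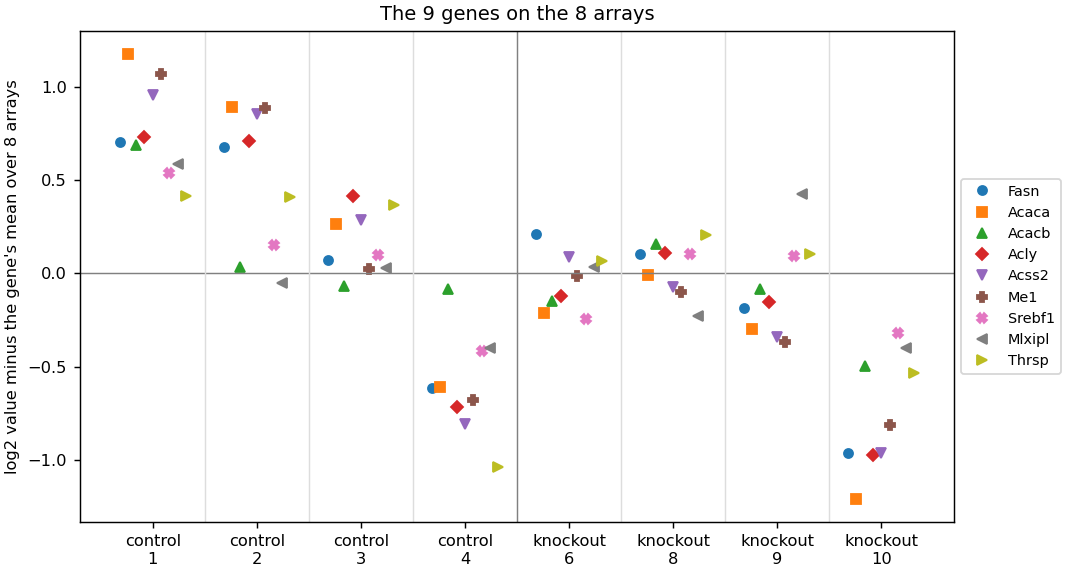
Log2 value of each of the 9 genes minus its own mean over the 8 arrays, with arrays along the horizontal axis and 1 marker per gene. Controls 1 and 2 stand high and control 4 and knockout 10 low for Fasn, Acaca, Acly, Acss2 and Me1. Acacb lies close to its mean on control 2 and control 4, and Mlxipl on knockout 9 stands apart at the top of its array.

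Because single arrays carried much of this spread, each difference was refitted without each array in turn. Without control 4 the differences were -1.21 for Acaca, -1.02 for Acss2, -0.98 for Me1, -0.90 for Acly, -0.69 for Fasn, -0.43 for Thrsp, -0.36 for Acacb, -0.35 for Srebf1 and -0.23 for Mlxipl. Without knockout 10 they were -0.60, -0.43, -0.49, -0.34, -0.17, 0.09, -0.17, -0.11 and 0.04 in the same order of genes. The enzymes kept a negative sign whichever array was left out, and Mlxipl and Thrsp did not. Without control 1 Mlxipl stood at 0.10 and Thrsp at 0.05. Leaving out control 4 raised the count of all genes at a limma unadjusted p under 0.05 from 466 to 1566. Over all alternatives the smallest adjusted p of any of the 9 was 0.348, for Acly, so no alternative brought one past the threshold. Without control 1, control 4 and knockout 9, 155 genes passed at an adjusted p under 0.05 (0.852% of genes), and none of the 9 was among them. There Acaca stood at -1.05, Acly at -0.89, Acss2 at -0.88, Me1 at -0.76, Fasn at -0.59 and Thrsp at -0.47.

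The 8 arrays fell into 2 sets by the lower quartile of their values, a difference that the labels do not explain. One set held controls 1 and 2 with knockouts 6 and 8, and the other controls 3 and 4 with knockouts 9 and 10, so each could be compared within itself. The mean of the hepatocyte markers described below was at least 7.08 in the first set and at most 7.001 in the second. The split also follows the order in which the samples are listed, with every array of the first set listed before every array of the second. It therefore cannot be told apart from that marker level or from whatever goes with the listing order, and no cause of it was tested. In the first set all 9 genes were lower in knockout, against 55% of all genes, with a median of -0.53. Me1 stood at -1.03 (limma unadjusted p = 0.00621), Acaca at -1.14 (unadjusted p = 0.0233), Acss2 at -0.90, Acly at -0.72 and Fasn at -0.53. Both knockouts lay below both controls for 7 of the 9, which moved together and are not independent, against 23.7% of all genes. Unadjusted p was under 0.05 for 2 of the 9, against 5.05% of all genes, and at an adjusted p under 0.05 there were 0 of the 9 and 0% of genes (smallest adjusted p 0.876).

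In the second set, 6 of the 9 were lower in knockout, against 46.6% of all genes, with a median of -0.26. Acaca stood at -0.58, Acly at -0.41, Acss2 at -0.39, Fasn at -0.30, Me1 at -0.26 and Acacb at -0.21, while Srebf1, Mlxipl and Thrsp stood at 0.05, 0.20 and 0.12. For none of the 9 did both knockouts lie below both controls, against 11.8% of all genes. Unadjusted p was under 0.05 for 0 of the 9 (2.15% of all genes), and by adjusted p the count was again 0 (0%). The difference between the sets was itself tested in limma: 0 of the 9 passed (0% of genes), with an adjusted p of at least 0.999976, and 0 of the 9 had an unadjusted p under 0.05 (3.24% of genes). The largest was Me1, at 0.77 with unadjusted p = 0.0746.

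**Figure D3:**
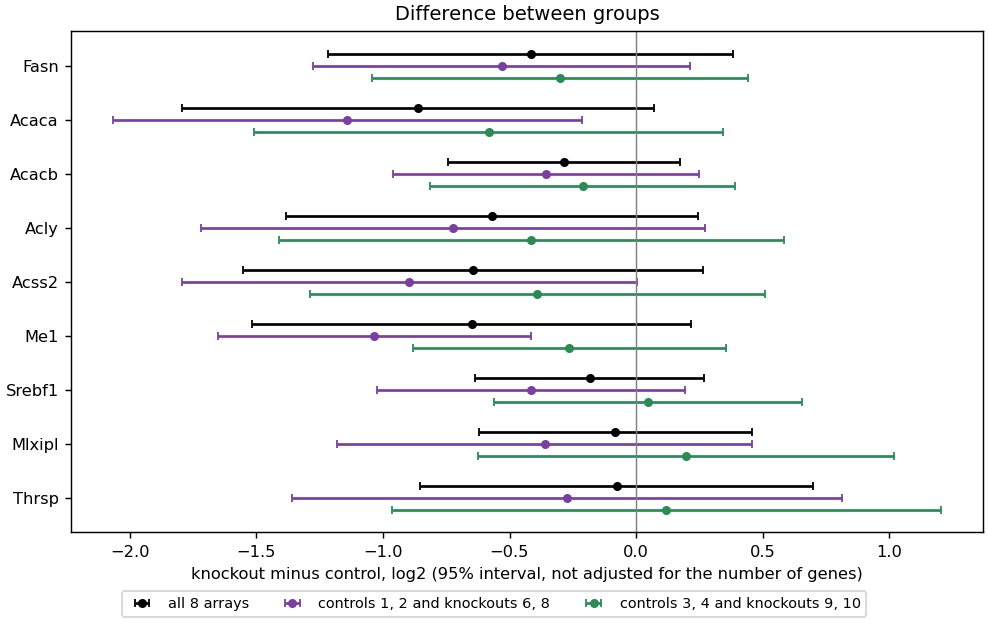
Difference in log2 value, knockout minus control, of the 9 genes with 95% intervals not adjusted for the number of genes, for all 8 arrays and for each set of 4 arrays. With all arrays every interval crosses 0, and only Acaca and Me1 within controls 1 and 2 and knockouts 6 and 8 have intervals wholly below 0.

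Other probe sets of the same genes were read separately. Of the 21 probe sets, 20 had a lower mean in knockout, against 52.3% of all probe sets. Several of them read the same gene and the genes moved together, so the 21 are not independent. None passed at an adjusted p under 0.05 (0% of 45037 probe sets), and 0 of the 21 had an unadjusted p under 0.05 against 2.53% of all, the smallest being 0.0615. For Acly, probe set 1425326_at measured 12.36, 12.37, 11.89 and 10.45 in controls and 11.24, 11.56, 11.22 and 10.37 in knockouts, and 1439459_x_at measured 12.97, 12.91, 12.68 and 11.47 against 12.16, 12.41, 12.01 and 11.34. Both had control 4 and knockout 10 as the lowest array of their group, as the brightest Acly probe set did. Probe set 1422478_a_at of Acss2 measured 10.71, 10.80, 10.18 and 8.998 in controls and 9.85, 9.61, 9.53 and 8.78 in knockouts. For Me1, 1416632_at measured 13.02, 12.92, 11.99 and 11.46 against 12.14, 11.95, 11.75 and 11.33. Thrsp probe set 1422973_a_at measured 13.93, 13.84, 13.68 and 11.70 against 13.23, 13.46, 13.23 and 12.46, again with control 4 the lowest of all. The dimmest probe sets, 1438389_x_at, 1439445_x_at and 1446315_at of Acly, 1445754_at of Acacb, 1446542_at of Acss2 and 1444166_at of Thrsp, lay between 2.84 and 7.75 and had no detection calls. Among them 1446315_at, at 4.17 to 4.85, was the only one of the 21 with a higher knockout mean.

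The probe set left for Acaca, 1427595_at, did not follow the brightest one, 1434185_at, and the r between them over the 8 arrays was 0.48. It measured 8.38, 10.52, 9.40 and 5.52 in controls and 8.80, 9.43, 5.95 and 8.40 in knockouts, a difference of -0.31 (limma unadjusted p = 0.783) that turned positive without control 2, control 3 or knockout 9. Control 4 and knockout 9 stood far below the rest. The arrays carry Affymetrix control probe sets near the 5' and 3' ends of the pyruvate carboxylase transcript, whose difference rises when RNA is shortened from its 5' end. That difference was 3.97, 1.59, 2.08 and 4.83 in controls and 2.10, 1.77, 4.65 and 1.60 in knockouts, so it was large on control 1, control 4 and knockout 9. Over the 8 arrays, 1427595_at had r = -0.88 with it (exact permutation p = 0.00362, adjusted over 21 relations 0.0760; rho = -0.86), and -0.51 without control 4 and knockout 9, on which the relation rests. With 1434185_at the r was -0.01. This relation was computed after the values of both Acaca probe sets had been seen, and the positions of these probe sets in the transcript were not used here. Pyruvate carboxylase itself supplies carbon for citrate, and its 3' control read 12.95, 12.79, 12.21 and 12.05 in controls and 12.29, 12.17, 12.21 and 11.72 in knockouts, lowest in each group on control 4 and knockout 10, as the 9 genes were.

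**Figure D4:**
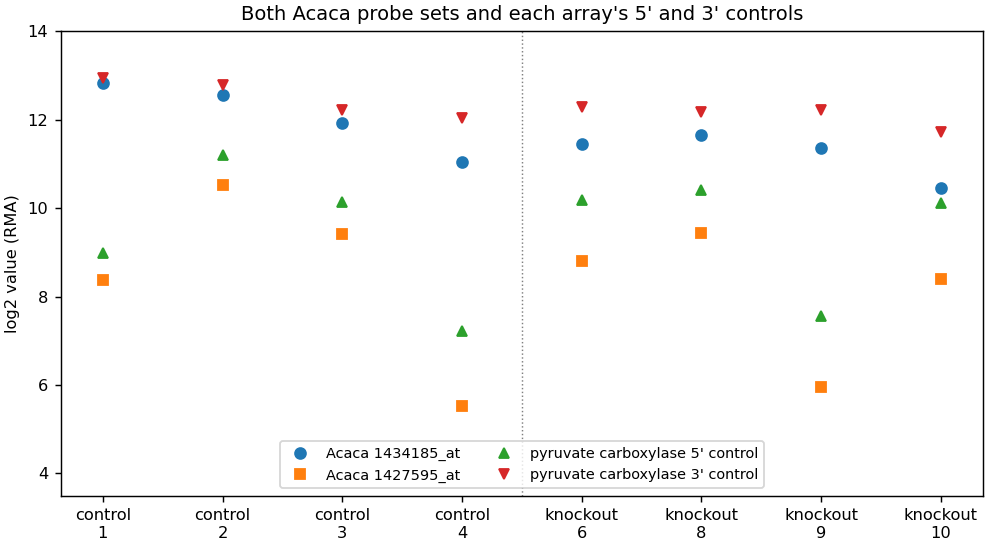
Log2 values (RMA) on each of the 8 arrays of the 2 Acaca probe sets and of the 5' and 3' control probe sets for pyruvate carboxylase. Acaca 1427595_at drops to 5.52 on control 4 and 5.95 on knockout 9, the arrays on which the 5' control drops to 7.21 and 7.56, while 1434185_at and the 3' control do not drop with them on knockout 9.

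The 9 genes moved together from array to array. Over the 36 pairs the median Pearson r was 0.83, from 0.53 for Acacb with Thrsp to 0.98 for Acss2 with Me1, and every pair was positive. Each pair was tested two-sided against all 40320 pairings of the 8 arrays (exact permutation), and after Benjamini-Hochberg adjustment over the 36 pairs, 28 pairs had an adjusted p under 0.05 for r and 25 for Spearman's rho. Passing did not by itself mark an r that is rare on these arrays. Acacb with Acss2 passed at r = 0.74 (adjusted exact permutation p = 0.0348). An r that high was reached with Acss2 by 10.4% of all genes and with Acacb by 3.96%. For Acaca with Acly the share was 0.044% with either gene. The core of the pattern was formed by Fasn, Acaca, Acly, Acss2 and Me1. Their 10 pairs had r of 0.93 to 0.98 and rho of 0.90 to 1, with an adjusted exact permutation p of at most 0.00690. The r was at least 0.84 after leaving out the 2 arrays farthest from the median of the pair's first gene. The first gene is the earlier in the order Fasn, Acaca, Acacb, Acly, Acss2, Me1, Srebf1, Mlxipl and Thrsp. The arrays left out therefore differ between pairs. Acss2 with Me1 had r = 0.98 and Acaca with Acly r = 0.97, each with rho = 1 and an exact permutation p of 2.48e-05, the smallest the 40320 pairings can give.

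**Figure D5:**
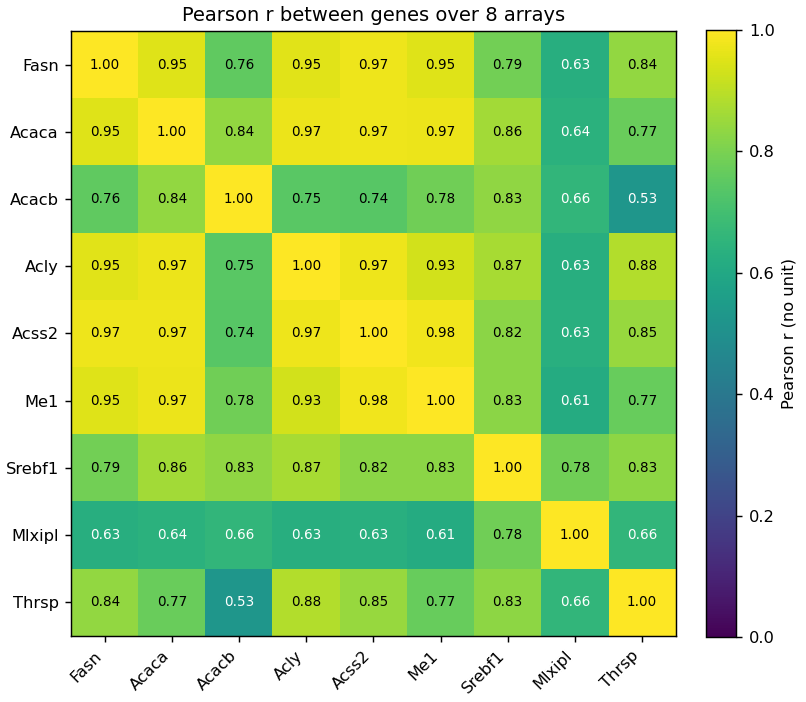
Pearson r over the 8 arrays for each pair of the 9 genes. The enzymes Fasn, Acaca, Acly, Acss2 and Me1 form a block of 0.93 to 0.98, and the 8 pairs of Mlxipl lie between 0.61 and 0.78.

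The regulators and Acacb had lower r with this core. Srebf1 had r of 0.79 with Fasn, 0.86 with Acaca, 0.87 with Acly, 0.82 with Acss2 and 0.83 with Me1, each with an adjusted exact permutation p under 0.05. With the 2 farthest arrays left out these became 0.53, 0.71, 0.83, 0.66 and 0.66. Thrsp had r of 0.84 with Fasn, 0.77 with Acaca, 0.88 with Acly, 0.85 with Acss2 and 0.77 with Me1, and without the farthest arrays these were 0.71, 0.75, 0.89, 0.83 and 0.86. Mlxipl, the ChREBP gene, had r of 0.61 to 0.78 and 1 of its 8 pairs passed, that with Srebf1 (r = 0.78, exact permutation p = 0.0219, adjusted p = 0.0345; rho = 0.57). That pair dropped to 0.44 without control 1 and control 4. Mlxipl with Fasn dropped to 0.13 without control 4 and knockout 10. Its pairs with Acaca, Acly and Acss2 dropped to between 0.10 and 0.25 without control 1 and knockout 10. Those pairs rest on the arrays left out. The r of Mlxipl with Me1 went from 0.61 to 0.51 without control 1 and control 2. With Thrsp it rose from 0.66 to 0.83 without control 1 and knockout 9, the highest knockout for Mlxipl. Because different arrays were left out, these changes cannot be compared between pairs. Acacb with Acaca had r = 0.84 (adjusted exact p = 0.018), which dropped to 0.42 without control 1 and knockout 10. Acacb with Mlxipl turned to -0.34 from 0.66 when the same arrays were left out.

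The median r was 0.83 after subtracting group means and 0.77 after subtracting the means of the array sets. Among all other genes, the median r with Fasn was -0.085, and 2.11% reached 0.9. For Acaca 1.07% reached it, for Acly 1.13%, for Acss2 2.35% and for Me1 2.22%, while for Acacb, Srebf1 and Mlxipl the shares were 0.154%, 0.225% and 0.198%. For Thrsp the share was 0.836%. Without control 1, control 4 and knockout 9 the median r among the 9 was 0.86, and leaving out 1 array at a time gave 0.76 to 0.85.

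Genes whose profile was most like the mean of the 9 were ranked among 8914 genes at or above the median level, of which 285 (3.20%) had r of at least 0.9. The 10 most like were D8Ertd738e (a DNA segment name), Tlcd1, Psmd2, Elovl6, Mrpl10, Sorl1, Adsl, Pdhb, Hsd17b12 and Mrpl24, with r from 0.98 to 0.99 over the 8 arrays. Elovl6, which lengthens palmitate, measured 10.71, 10.74, 9.89 and 8.84 in controls and 9.89, 9.82, 9.59 and 8.60 in knockouts, again with control 4 and knockout 10 low. Hsd17b12, a reductase of the elongation cycle, measured 12.77, 12.60, 12.34 and 11.77 against 12.25, 12.13, 11.97 and 11.68. Pdhb, a subunit of pyruvate dehydrogenase, measured 12.80, 12.72, 12.23 and 11.75 against 12.20, 12.25, 12.12 and 11.76. Their groups overlapped too, with differences of -0.57, -0.36 and -0.29, and none passed the limma test (adjusted p = 0.999 for each). Psmd2 is a proteasome subunit, Adsl an enzyme of purine synthesis, and Mrpl10 and Mrpl24 are proteins of the mitochondrial ribosome. Their spans over the 8 arrays were small: Psmd2 lay between 11.22 and 11.68, and Mrpl24 between 10.82 and 11.21. The 5 most opposed were Zbtb20, Serinc3, Fbxo42, Pink1 and Med13, with r from -0.97 to -0.95. Zbtb20, a zinc finger repressor, measured 10.91, 11.001, 11.14 and 11.32 in controls and 11.11, 11.16, 11.18 and 11.30 in knockouts, lowest on controls 1 and 2 and highest on control 4 and knockout 10.

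Around the 9 genes, 6 lists of the pathway were read gene by gene, and with all 8 arrays no gene of any list passed at an adjusted p under 0.05. Without control 1, control 4 and knockout 9, 1 gene of the lists passed, Elovl3. In substrate and NADPH supply, 15 of 16 measured genes had a lower knockout mean and 1 a higher one, with 0 passing in either direction and a median of -0.126. Pcx, which makes oxaloacetate for citrate, measured 12.99, 12.85, 12.29 and 12.16 in controls and 12.34, 12.27, 12.31 and 11.87 in knockouts, a difference of -0.38 (95% interval -0.84 to 0.09; limma unadjusted p = 0.101), or -0.24 without control 1. Pdha1, a subunit of pyruvate dehydrogenase, stood at -0.27 (-0.59 to 0.04), with -0.55 in the first array set and 0.00 in the second, and -0.17 without control 1. The median r of this list with the mean of the 9 was 0.88, and 6 of 16 genes reached 0.9, named after their values were seen: Slc25a1, the citrate carrier, Pcx, Idh1, Pgd, Tkt and Aasdhppt. In desaturation and elongation, 8 of 12 were lower and 4 higher, with 0 passing and a median of -0.049. Elovl3, an elongase, measured 5.77, 6.13, 5.96 and 5.17 in controls and 5.11, 5.23, 4.99 and 5.21 in knockouts, a low level with a difference of -0.62 (-1.06 to -0.18; limma unadjusted p = 0.0111, adjusted p = 0.999). Without control 1, control 4 and knockout 9 it stood at -0.86, with a limma adjusted p of 0.0438, which makes it 1 of the 155 genes called there. Fads2, a desaturase, stood the other way at 0.63 (-0.13 to 1.38), or 0.95 without knockout 9. In triglyceride assembly, 6 of 8 were lower and 2 higher, 0 passing, with a median of -0.060. Mogat1 stood at -0.47 (-0.89 to -0.05; unadjusted p = 0.0323) and Dgat1, which adds the last acyl chain, at -0.18 (-0.66 to 0.31). Dgat1 ran from -0.33 without control 4 to -0.04 without control 2.

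The lists around the regulators were read the same way. Among SREBP processing genes and partners, 11 of 17 were lower and 6 higher, 0 passing, with a median of -0.048. Usf2, which binds E-boxes, measured 9.37, 9.14, 9.20 and 9.31 in controls and 9.06, 8.996, 9.07 and 8.996 in knockouts. All 4 knockouts lay below all 4 controls, by a difference of -0.22 (95% interval -0.39 to -0.06; limma unadjusted p = 0.0144, adjusted p = 0.999), which was -0.22 in both array sets too. Its other probe set, 1460228_at, did not share this and measured 8.28, 8.04, 7.97 and 8.51 in controls and 8.198, 8.26, 8.38 and 8.32 in knockouts, a difference of 0.09. The mean of both probe sets differed by -0.07. All knockouts lay below all controls for 1.02% of all genes, and Usf2 was named for the smallest unadjusted p of its list. Srebf2, the paralog that serves cholesterol synthesis, stood at 0.18 (-0.04 to 0.40), or 0.09 without control 2. Nr1h3, which encodes the LXR alpha receptor that raises Srebf1, had the highest r of the list with the mean of the 9, at 0.95, and the median of the list was 0.20. Among ChREBP partners and glucose-responsive genes, 4 of 11 were lower and 7 higher, 0 passing, with a median of 0.122. Pklr, a pyruvate kinase gene known as a ChREBP target in liver, stood at 0.23 (0.02 to 0.44; unadjusted p = 0.0379), and Khk, which phosphorylates fructose, at 0.37 (-0.11 to 0.85), or 0.18 without control 3. The median r of this list with the mean of the 9 was -0.03, from 0.95 for Mlx, the partner of ChREBP, to -0.81 for Txnip, a glucose-induced gene; these genes were named after their values were seen.

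Among genes that control acetyl-CoA carboxylase, 8 of 14 were lower and 6 higher, 0 passing, with a median of -0.040 and 3 of the higher genes at an unadjusted p under 0.05, a call made in that direction for 1.18% of all genes. Prkag3, a subunit of AMP-activated kinase, which inhibits the carboxylases, measured 7.02, 6.81, 7.28 and 7.33 in controls and 7.64, 7.52, 7.73 and 7.88 in knockouts. All knockouts lay above all controls, by 0.58 (95% interval 0.28 to 0.89; limma unadjusted p = 0.00201, adjusted p = 0.999). This subunit was read by 1 probe set. The list was chosen with earlier results of these arrays known, so its 3 genes are not an independent count to set against 1.18%. Of the other listed subunits of the kinase, Prkaa1, Prkaa2, Prkab1, Prkab2 and Prkag1 had a lower knockout mean and Prkag2 a higher one. Trib3, a pseudokinase that can promote breakdown of the carboxylase protein, measured 7.40, 7.52, 7.46 and 7.36 in controls and 7.88, 7.85, 7.69 and 8.21 in knockouts. Its knockouts also lay above all controls, by 0.47 (0.22 to 0.73; unadjusted p = 0.00248, adjusted p = 0.999), with 0.40 in the first array set and 0.54 in the second. Groups without overlap in either direction were found for 1.7% of all genes, and neither gene passed the adjustment over all genes.

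Markers of other cells were read beside these values, in lists also chosen with earlier results of these arrays known. Adipocyte markers, 8 of 10 measured, had a mean log2 level of 12.90 to 13.28 in controls and 13.08 to 13.28 in knockouts, so the labelled tissue carried its markers on every array. Hepatocyte markers, 11 of 12 measured, had a mean of 10.55, 7.64, 7.001 and 5.86 in controls and 8.25, 7.08, 5.85 and 6.56 in knockouts, and all 11 were lower in the knockout mean without passing the test. Albumin, their defining gene, measured 13.64, 10.95, 9.20 and 7.87 in controls and 11.97, 10.25, 8.06 and 8.89 in knockouts. Among controls, control 1 was highest and control 4 lowest for these markers as for the 9 genes, while among knockouts their mean was lowest on knockout 9 and not on knockout 10. The median r of the hepatocyte list with the mean of the 9 was 0.75. The 9 genes are also expressed in liver. With the hepatocyte mean as a covariate the difference was -0.61 for Acaca, -0.38 for Acly, Acss2 and Me1, -0.21 for Fasn, -0.16 for Acacb, -0.08 for Srebf1, 0.03 for Mlxipl and 0.09 for Thrsp. With the straight-line fit on that mean subtracted from each gene, an alternative added after seeing the data, the median r among the 9 was 0.66 and all 36 pairs stayed above 0. Neutrophil markers, 5 of 6 measured, stood at 9.15 on control 4 and at 5.92 to 6.37 on the other arrays. Smooth muscle markers, 6 of 6 measured, stood at 8.17 to 9.19 in controls and 8.73 to 9.06 in knockouts, with all 6 higher in the knockout mean and a median r of -0.66 with the mean of the 9. Macrophage markers, 10 of 10 measured, stood at 10.09 to 10.68 in controls and 9.76 to 10.28 in knockouts, with all 10 lower in the knockout mean, 2 of them at a limma unadjusted p under 0.05 (1.38% of all genes in that direction), and a median r of -0.17. Markers of mammary epithelium, 8 of 8 measured, had 6 genes higher in the knockout mean and 2 lower. Of these, Csn2, Csn3, Wap, Lalba and Elf5 were dim, between 4.15 and 5.84 on all arrays, and only Krt8, Krt18 and Epcam were bright. The count therefore includes dim genes, and the values do not show the epithelium to be mammary. Epcam, an epithelial marker, measured 10.69, 8.68, 7.35 and 10.51 in controls and 10.32, 10.73, 9.64 and 10.13 in knockouts. It was lowest on controls 2 and 3, as were Krt8 and Krt18 but not the rest of this list. Khk and Fads2 probe set 1419031_at were also lowest on these 2 arrays, a likeness that was not tested. The brightest Fads2 probe set, 1449325_at, did not share it. It measured 8.45 on control 2 and 7.89 on control 3, against 8.34 on control 4 and 8.05 on knockout 9. None of these markers passed the adjustment over all genes. RMA values have no 0, so no marker can be called absent, and the part of these cells in the values of the 9 genes was not tested.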

How the data were processed

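Total RNA was prepared with Trizol and turned into biotin-labelled cRNA, per the labels' protocols. The authors made the deposited log2 values with RMA, per the submitters' processing notes, which name no version. RMA corrects background, normalises between arrays and summarises probes, and can compress dim values. The table held 45101 probe sets, of which 64 Affymetrix controls were left out of the tests. Genes were named from the platform annotation of 2016, which had 34945 probe sets with 1 symbol, 932 with several and 9160 with none; 1 probe set that shares its symbol with another gene beside a gene of interest was left out. Promoter sequences are RefSeq's (GRCm38.p6), matched by symbol.

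Knockout was compared with control in limma 3.58.1 (R 4.3.3; lmFit and eBayes, no covariates). P-values were adjusted by Benjamini-Hochberg over all genes, or all probe sets, with a threshold of 0.05. Intervals of 95% are not adjusted. Replicate numbers are not shared between groups. With 4 arrays per group, their number limits precision. Array sets were split at the widest gap of the lower quartile. The 9 genes and the lists were chosen with earlier results of these data known. Named in addition were the 2 genes with the smallest unadjusted p of each pathway list, where none passed, and the 10 most and 5 least like the mean of the 9, passing over symbols that only number a clone. Correlations used scipy 1.17.1. Steps were tested on simulated data. Alternatives were other variance models, filters, normalisations, summaries, covariates, array weights and left-out arrays.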

Additional observations from a re-analysis of the deposited data

Results flagged for a closer look

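Single arrays that lay far from the other 3 of their group were looked for in 132 groups of 4 arrays, and 16 were found (12.1%). The rule is set for about 1 in 20 of independent groups. These groups are not independent, because many move together and some genes were picked from these arrays for their profile. The share found can therefore not be set against 1 in 20. Control 4 was low for both bright Thrsp probe sets, at 11.70 for 1422973_a_at (next control 13.68) and 12.74 for 1424737_at (next 14.14), and for 2 dim probe sets, at 2.84 for Acly 1439445_x_at (next 3.28) and 5.03 for Acss2 1446542_at (next 5.81). Control 1 was high for Acacb 1427052_at, at 10.54 (next 9.89). The dim Acacb probe set 1445754_at was high on control 2, at 5.09 (next 4.83), and low on knockout 9, at 4.76 (next 4.79).

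Knockout 10 was the outlying knockout for several genes that follow the lipogenic enzymes. It stood at 11.87 for Pcx (next knockout 12.27), 10.36 for D8Ertd738e (10.50), 9.27 for Tlcd1 (9.88), 9.41 for Sorl1 (9.89) and 8.50 for Adsl (8.71). For Med13, which runs opposite, it was high at 10.03 (next 9.92). Apart from Pcx, these genes were named because they follow or oppose the mean of the 9. That mean was itself lowest on knockout 10, so their flags partly repeat that choice. Knockout 9 was high for Pdha1, at 12.16 (next 12.04). Among marker means, macrophage markers were low on knockout 6, at 9.76 (next 10.21), and neutrophil markers high on control 4, at 9.15 (next 6.37).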

How the results depend on the processing

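No paired analysis was possible because the groups share no replicate number. Of 162 recomputed differences of the 9 genes, 8 changed sign, all of Mlxipl or Thrsp. The 162 include alternatives that leave each difference as it was and could not change a sign. These were the other variance model, the filter on dim genes and the array set as a block. With the hepatocyte covariate Mlxipl stood at 0.032 and Thrsp at 0.088. Leaving out 1 array gave -0.24 to 0.10 for Mlxipl (1419185_a_at), -0.43 to 0.088 for Thrsp (1424737_at), -0.72 to 0.023 for Thrsp 1422973_a_at, -0.30 to 0.052 for Thrsp 1444166_at and -1.29 to 0.42 for Acaca 1427595_at. The median difference of the 9 ran from -0.69 without control 4 to -0.17 without knockout 10, and was -0.21 with the hepatocyte covariate. Genes past the threshold numbered 0 in each alternative except without control 1, control 4 and knockout 9 (155); unadjusted counts ran from 283 to 2286. Probe sets past the threshold numbered 0 to 1 when 1 array was left out, the 1 without control 4. A variance trend with robust estimation gave 1 gene in the first array set. The median r among the 9 was 0.66 with the hepatocyte fit subtracted. Without control 1, control 4 and knockout 9, Pklr stood at 0.37, Khk at 0.78, Fads2 at 1.16 and Usf2 at -0.15. The controls left there, 2 and 3, had the lowest levels of the epithelial marker Epcam, at 8.68 and 7.35. With the hepatocyte covariate Pcx stood at -0.25 and Dgat1 at -0.04, and Dgat1 was -0.09 with the mean of its probe sets and -0.29 with array weights. The causes were not tested. The table has no detection calls, so signal over background is unknown and limits the dim probe sets most.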
